A study of Oryza sativa with 10 samples.

Results

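The subject is the set of nuclear rice genes annotated as photosystem or light-harvesting proteins. A locus was a member where its description, ignoring case, contained "photosystem I", "photosystem II", "chlorophyll a/b", "chlorophyll a-b", "light-harvesting", "light harvesting" or "oxygen-evolving", which chose 71 of 37727 loci in the tables. The rule used the wording of the descriptions and no measured value. The set was divided by role into 9 photosystem I subunits, 11 photosystem II subunits and 15 antenna proteins, leaving 36 other loci. These 36 were photoprotective and assembly factors, paralogs of lumenal subunits, gene fragments and 1 flowering regulator, GHD7, which matched by a domain name alone.

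The libraries came from the rice cultivar Nijinokirameki (Oryza sativa, genotype WT), sampled 5 days after flowering in 2024. The GM plants grew on green manure alone, a cover crop of hairy vetch turned into the paddy soil. The CF plants received chemical fertilizer as a basal dressing of 56 kg/ha N, 176 kg/ha PO4 and 56 kg/ha K. There were 2 GM and 2 CF endosperm libraries, and 3 GM and 3 CF flag leaf libraries. An endosperm replicate pooled spikelets of a single plant and was dissected away from the embryo, per the labels. The labels do not tie leaf replicates to separate plants or either regime to repeated plots, so the p-values measure the spread between these samples, which may be technical.

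Photosystems I and II are the pigment-protein complexes of the thylakoid membrane that turn absorbed light into electron transport, and photosystem II also splits water through its oxygen-evolving complex. Each is surrounded by antenna proteins that bind chlorophyll a and b, LHCI around photosystem I and LHCII around photosystem II. The reaction centre proteins are encoded in the plastid, so a poly(A) library of nuclear genes reads mainly the peripheral subunits and the antenna. Flag leaves are the main photosynthetic source for the filling grain, while the young grain is green mostly in its maternal outer layers and its endosperm stores starch.

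Counted reads per library ranged over 18656783 to 20771235 in GM endosperm and 12200510 to 19173953 in CF endosperm, and over 12500336 to 15933394 in GM leaf and 18540688 to 25827356 in CF leaf. The 3 GM leaf libraries were thus the shallowest of the leaf set. Marker genes fitted the tissue labels: the starchy endosperm list summed to between 46460 and 74448 CPM (counts scaled to a common library size) in the endosperm libraries and to between 238.1 and 294.2 CPM in the leaf libraries. The leaf mesophyll list summed to between 961.5 and 1386 CPM in endosperm and to between 48251 and 60846 CPM in leaf. Aleurone and embryo markers summed to 643.5 and 556.0 CPM in GM endosperm and to 1127 and 1233 CPM in CF endosperm.

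At least 1 read was counted for 63 of the 71 members, and the other 8 had 0 reads in all 10 libraries. All 8 silent loci were classed by role as fragments of antenna genes or as copies of plastid genes. After the filter on low counts, 55 members were tested in the endosperm, 58 in the leaf and 59 in the joint fit of both tissues. Members took 0.779% and 0.739% of the reads of the GM endosperm libraries and 1.08% and 0.837% of the CF endosperm libraries. In leaf they took between 7.56% and 8.56% under GM and between 7.74% and 8.43% under CF. Levels below are CPM after scaling by trimmed mean of M values (TMM) within a tissue. The log2 fold changes between tissues instead used TMM factors over all 10 libraries, 1.09 to 1.22 in endosperm and 0.883 to 0.945 in leaf. Ratios of the printed CPM between tissues therefore differ from those fold changes. Gene lengths were not used here, so levels are compared between libraries and not between genes.

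Photosystem and antenna transcripts were present in the endosperm, far below their leaf levels. Of the 59 members tested, 56 were lower and 3 higher in endosperm than in leaf under GM, and the same counts were found under CF (edgeR quasi-likelihood test, Benjamini-Hochberg adjusted p under 0.05). Tissue changed most genes: 82.3% of all genes tested were called under GM, 37.7% being lower in endosperm and 44.6% higher, and 83.1% under CF, 38.1% being lower and 45% higher. The median log2 fold change of the members, endosperm over leaf, was −3.72 under GM and −3.34 under CF, against 0.16 and 0.15 over all genes tested. Markers of pericarp, nucellus and transport face, the maternal layers around the endosperm, summed to 1823 and 1632 CPM in GM endosperm and 2090 and 2122 CPM in CF endosperm, against 58.0 to 69.7 CPM in leaf. Of the 6 genes in that list, 5 were called higher in endosperm under each regime. The remaining gene was called lower under CF (log2 fold change −8.82). Under GM the remaining gene was negative (−1.08) and not called. The part of these layers in the photosystem levels was not tested. In such bulk samples, fewer green cells and less of the RNA in each cell cannot be told apart.

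Photosystem I genes were lower in endosperm throughout. Their median log2 fold change, endosperm over leaf, was −3.86 under GM and −3.61 under CF. Leaving aside Os03g0731100, a PsaN-family paralog of low level, the 8 other subunits lay between −4.10 and −3.18 under GM and between −3.70 and −2.89 under CF. PSAD, a stromal subunit at the ferredoxin docking site, had 173.8 and 192.5 CPM in GM endosperm and 264.6 and 188.9 CPM in CF endosperm. In leaf PSAD had 2122, 1859 and 2310 CPM under GM and 2278, 2311 and 2259 CPM under CF. Its levels did not overlap between the tissues under either regime. Endosperm libraries lay wholly below leaf libraries for 39.9% of all genes tested under GM and 41.4% under CF.

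In photosystem II the median was −3.55 under GM and −3.15 under CF. The 3 extrinsic proteins of the oxygen-evolving complex lay close together, with PSBO at −3.57 under GM and −3.07 under CF, PSBP at −3.53 and −3.06, and PSBQ at −3.18 and −2.75, in the same order of regimes. PsbR3, a 10 kDa lumenal subunit associated with the oxygen-evolving complex, stood far outside this range. It had 211.9 and 227.9 CPM in GM endosperm and 320.3 and 238.7 CPM in CF endosperm. In leaf it reached 9773, 9098 and 10191 CPM under GM and 10498, 10203 and 10143 CPM under CF. The PsbR3 log2 fold change was −5.81 (SE 0.20) under GM and −5.57 (SE 0.20) under CF.

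**Figure D1:**
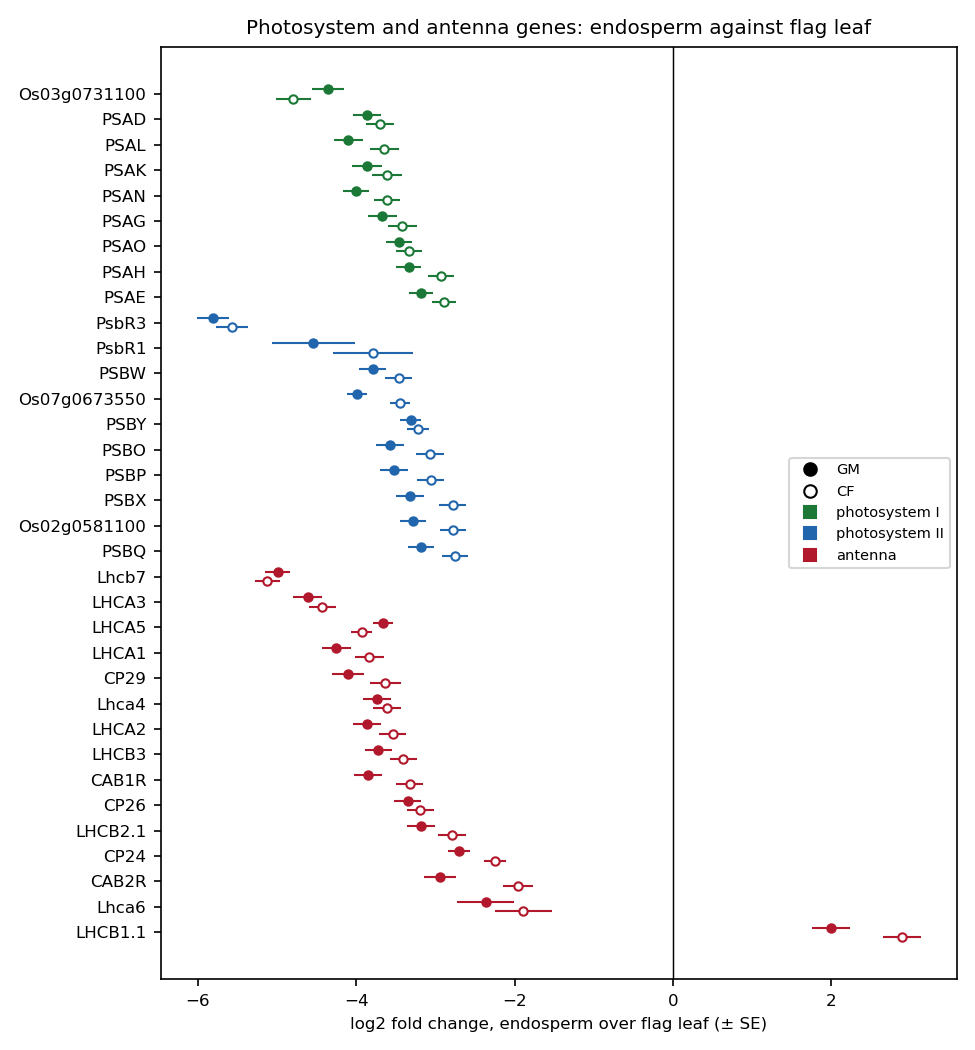
Log2 fold change of endosperm over flag leaf with its SE for the 34 tested photosystem I, photosystem II and antenna genes, under GM (filled) and CF (open). All but LHCB1.1 lie left of 0, with PsbR3 at −5.81 under GM and −5.57 under CF.

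The antenna class held the exception among the named subunits. LHCB1.1 (Os01g0720500), described as a type I LHCII protein, was higher in endosperm than in leaf. It had 199.3 and 214.1 CPM in GM endosperm and 377.7 and 270.3 CPM in CF endosperm, and only 54.9, 33.9 and 34.0 CPM in GM leaf and 36.2, 37.5 and 27.8 CPM in CF leaf. Every endosperm library stood above every leaf library, which within a regime held for 11919 of 25035 genes tested under GM and 12049 under CF. In the joint fit the log2 fold change, endosperm over leaf, was 2.00 under GM (SE 0.24, adjusted p = 4.91e-05) and 2.89 under CF (SE 0.24, adjusted p = 3.43e-06).

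The other type I LHCII genes did the opposite. CAB1R (Os09g0346500) had a log2 fold change of −3.85 under GM and −3.32 under CF, and CAB2R (Os01g0600900) of −2.94 under GM and −1.96 under CF. Among the reads of CAB1R, CAB2R and LHCB1.1 together, LHCB1.1 took 11.9% ± 0.60 in endosperm and 0.281% ± 0.071 in leaf (SD, n = 4 and 6 libraries, GM and CF pooled). CAB2R took 41.7% ± 1.18 of them in endosperm and 28.9% ± 3.10 in leaf. For each share the tissues did not overlap (2-sided exact permutation test, p = 0.00952, the smallest that 4 against 6 libraries allow, adjusted p = 0.0104 over 12 ratios and shares that were chosen after the data were seen). Unique counting can drop or shift reads between such similar copies, and how much was not tested.

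**Figure D2:**
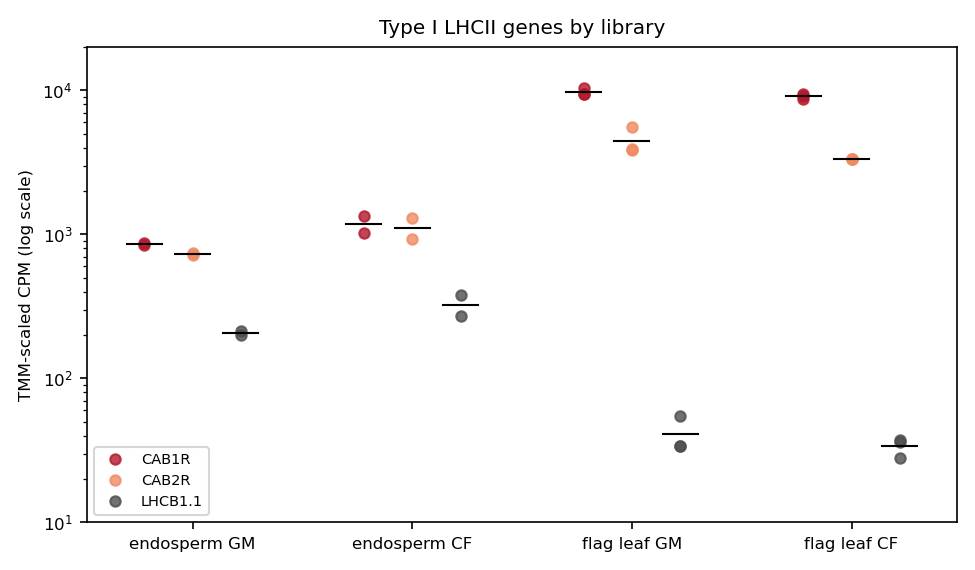
TMM-scaled CPM on a log axis of the type I LHCII genes CAB1R, CAB2R and LHCB1.1 in each library by group, with group means as bars. LHCB1.1 lies at 199.3 to 377.7 CPM in endosperm and at 27.8 to 54.9 CPM in leaf, the reverse of the other genes.

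Beyond the named subunits, the other members higher in endosperm were Os02g0631100 and PAP90. Os02g0631100 is a PsbQ-family gene and a paralog of PSBQ. It had 811 and 667 reads in GM endosperm and 773 and 480 in CF endosperm, with 4, 3 and 5 reads in GM leaf and 9, 7 and 5 in CF leaf. Its log2 fold change, endosperm over leaf, was 6.59 under GM and 6.58 under CF. PAP90 had 26.9 and 29.1 CPM in GM endosperm and 31.1 and 29.2 CPM in CF endosperm, against 11.8, 8.65 and 10.0 CPM in GM leaf and 11.5, 11.4 and 11.2 CPM in CF leaf. Both therefore kept endosperm levels above leaf levels in every library.

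Some members were only modestly lower in endosperm. CYO1, which in Arabidopsis acts in thylakoid formation of young plastids, had a log2 fold change of −1.06 under GM and −1.05 under CF, and NOL, a chlorophyll b reductase subunit, of −1.30 and −1.24 in the same order. OsLIL3, a light-harvesting-like protein tied to chlorophyll synthesis in Arabidopsis, was at −1.86 under GM and −1.53 under CF. At the other end, PSB33 was at −5.04 and −5.17, and Lhcb7, a rare antenna protein, at −4.99 and −5.12, under GM and CF in that order. STN8, the kinase that phosphorylates photosystem II core proteins in Arabidopsis, was at −5.68 under GM and −4.81 under CF.

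The balance between the classes differed between the tissues. With GM and CF libraries pooled, summed LHCII reads were 3.36 ± 0.13 times the summed LHCI reads in endosperm and 1.91 ± 0.11 times in leaf (SD, n = 4 and 6). The 2-sided exact permutation p was 0.00952 (adjusted p = 0.0104). The tissue SDs here and in the next paragraph mix regime with replicate spread, and the permutations took no account of regime. Without CAB2R the ratio was 2.65 ± 0.07 in endosperm and 1.67 ± 0.07 in leaf, with the same p. LHCI over photosystem I reads went the other way, at 1.16 ± 0.04 in endosperm and 1.48 ± 0.03 in leaf, also with no overlap. The antenna took 68.8% ± 0.91 of the reads of the 3 classes in endosperm and 60.8% ± 0.30 in leaf. These are ratios of reads and not of molecules, but gene lengths are the same in every library.

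Ratios that involve photosystem II turned on PsbR3. Photosystem II over photosystem I reads was 1.28 ± 0.03 in endosperm and 1.78 ± 0.07 in leaf, yet without PsbR3 it was 1.06 ± 0.02 in endosperm and 0.847 ± 0.065 in leaf, so the direction reversed (SD, n = 4 and 6; exact permutation p = 0.00952 for each). LHCII over photosystem II reads was 3.04 ± 0.15 in endosperm and 1.59 ± 0.04 in leaf, and without PsbR3 it was 3.68 ± 0.17 in endosperm and 3.35 ± 0.12 in leaf (exact permutation p = 0.0190 without PsbR3). PsbR3 held 17.3% and 17.9% of the photosystem II reads in GM endosperm and 17.3% and 17.4% in CF endosperm, against 50.3%, 51.4% and 49.8% in GM leaf and 54.6%, 52.2% and 55.8% in CF leaf.

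**Figure D3:**
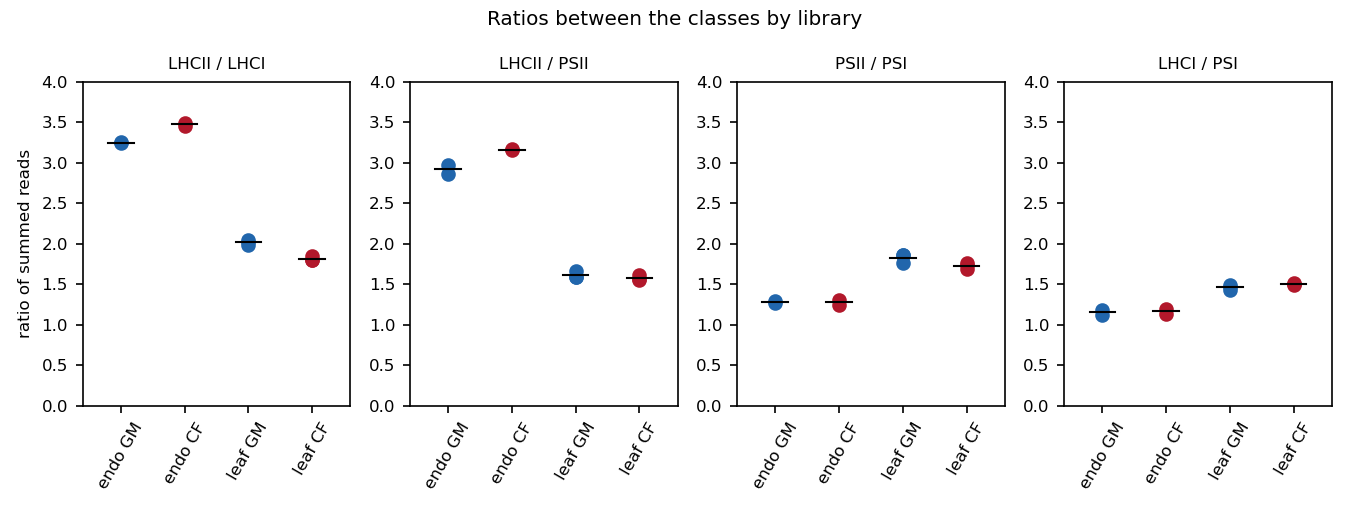
Ratios of summed reads (no unit) in each library by group, with group means as bars, for LHCII over LHCI, LHCII over photosystem II (PSII), PSII over photosystem I (PSI) and LHCI over PSI. LHCII over LHCI averages 3.36 in endosperm and 1.91 in leaf, and the tissues are apart in every panel.

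The second question was whether green manure went with another level of these genes, first in the endosperm. No member passed the main test there. By edgeR's quasi-likelihood test, 0 of 55 members were called, where 1.26% of all 23094 genes tested were called and 1.23% were called lower. At an unadjusted p under 0.05 there were 26 members, each with a negative value, where 14.6% of all genes reached that p. Negative log2 fold changes, GM over CF, were found for 48 of the 55 (49.6% of all genes), with a median of −0.35 against 0.00 over all genes tested. The SD between endosperm replicates of the median log2 level over all members was 0.21. In 32 members both GM libraries lay below both CF libraries, which held for 23.5% of all genes tested. DESeq2 called 6 members lower, which were LHCB1.1, CAB2R, CAB1R, LHCA1, CP29 and PSAL, where it called 1.26% of all genes lower. With no filter on low counts, edgeR called 19 of 63 members lower, where 3.23% of all genes were called lower.

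The 3 classes had similar values. The median log2 fold change, GM over CF, was −0.36 in photosystem I, −0.37 in photosystem II and −0.42 in the antenna. An unadjusted p under 0.05 was found for 3 of 9 photosystem I, 7 of 10 photosystem II and 12 of 15 antenna genes, and the difference between the classes was not tested. Within the antenna LHCII had a median of −0.45 and LHCI of −0.34. The other members tested, 21 in all, had a median of −0.11, with 4 at that p.

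The lowest unadjusted p among the 3 classes belonged to LHCB1.1, whose CPM values are given above. Its log2 fold change was −0.65 (SE 0.15, adjusted p = 0.0828, edgeR). CAB2R had 721.0 and 747.2 CPM in GM endosperm and 1297 and 931.7 CPM in CF endosperm, a log2 fold change of −0.60 (SE 0.17, adjusted p = 0.136). CAB1R had 869.8 and 840.6 CPM under GM and 1331 and 1029 CPM under CF, a log2 fold change of −0.46 (SE 0.16, adjusted p = 0.213). In all 3 genes both GM libraries were below both CF libraries, and the first CF library was above the second.

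The inner antenna proteins, which link LHCII to the photosystem II core, gave −0.50 for CP29 (SE 0.16), −0.37 for CP24 (SE 0.11) and −0.34 for CP26 (SE 0.14). LHCB2.1, which with the type I proteins forms LHCII trimers, was at −0.44 (SE 0.17), and LHCB3 at −0.45 (SE 0.14). In the LHCI belt, LHCA1 was at −0.48 (SE 0.15, adjusted p = 0.171), LHCA2 at −0.42, Lhca4 at −0.34 and LHCA3 at −0.33. The low-level LHCI genes LHCA5 and Lhca6 were at 0.07 and −0.16, with SEs of 0.15 and 0.22. None of these passed the adjusted threshold.

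In photosystem I, PSAL, the subunit beside which mobile LHCII docks, had 200.0 and 188.5 CPM in GM endosperm and 331.8 and 232.6 CPM in CF endosperm, a log2 fold change of −0.54 (SE 0.16, adjusted p = 0.168). PSAN, a lumenal subunit on the plastocyanin side, was at −0.42 (SE 0.15) and PSAK at −0.40 (SE 0.20). PSAE and PSAD, which form the stromal ferredoxin side, were at −0.19 (SE 0.15) and −0.31 (SE 0.15). Os03g0731100 had the one positive value of the class, 0.28 (SE 0.36), at 1.2 to 1.7 CPM.

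In photosystem II, PSBO had 392.7 and 404.8 CPM in GM endosperm and 603.2 and 448.7 CPM in CF endosperm, a log2 fold change of −0.40 (SE 0.15, adjusted p = 0.249). PSBP was at −0.39 (SE 0.14) and PSBQ at −0.36 (SE 0.14), so the proteins of the oxygen-evolving complex had nearly equal values. PsbR3 was at −0.35 (SE 0.14), while its paralog PsbR1 was at 0.05 (SE 0.16). The small subunits PSBX, Os07g0673550 and Os02g0581100 were at −0.44, −0.52 and −0.40, and PSBY at −0.07.

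Among the other members, PSB27, a lumenal assembly and repair factor of photosystem II, had 30.2 and 27.1 CPM under GM and 46.6 and 36.4 CPM under CF. Its log2 fold change was −0.54 (SE 0.13, adjusted p = 0.0772), and its GM and CF libraries did not overlap. STN8 had 5.24 and 6.0 CPM under GM and 11.0 and 6.77 CPM under CF, a log2 fold change of −0.68 (SE 0.23, adjusted p = 0.205). PSBS1 and PSBS2, the proteins of energy-dependent quenching, were at −0.51 (SE 0.21) and −0.45 (SE 0.16). OHP1, a one-helix protein needed for photosystem II assembly in Arabidopsis, was at 0.22 (SE 0.15). Os02g0610700, at 1.9 to 3.6 CPM, had the highest value of all members, 0.51 (SE 0.30).

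**Figure D4:**
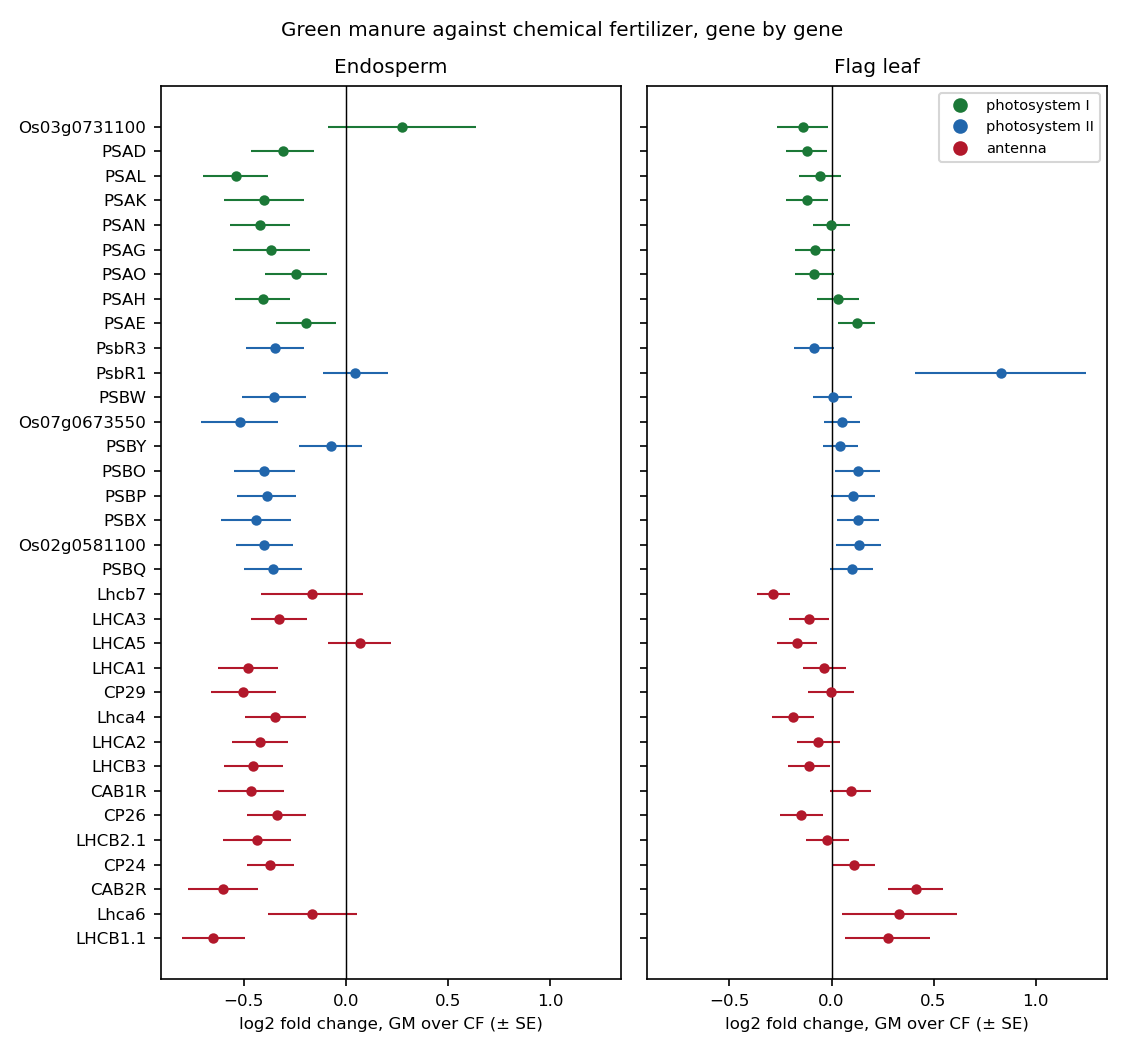
Log2 fold change of GM over CF with its SE for the same 34 genes in endosperm and in flag leaf. In endosperm 31 of the 34 lie below 0, with medians of −0.36 to −0.42 by class, while the leaf values scatter around 0.

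A single CF library carried much of this difference. The first CF endosperm library was the highest of the 4 for 46 of the 55 members, and for 30 of the 34 in the 3 classes. The second CF library exceeded both GM libraries for 33 of the 55 and for 24 of the 34. In the 3 classes the median log2 gap between the first and second CF libraries was 0.44, and the median gap of the GM mean to the second CF library was −0.14. Without the first CF library the median of the members was −0.12 with 0 called, where 0.568% of all genes were called. Without the second CF library it was −0.53 with 13 called lower, where 1.2% of all genes were called lower. Without the first GM library 4 members were called lower, against 2.42% of all genes, and without the second GM library 5, against 2.44%.

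**Figure D5:**
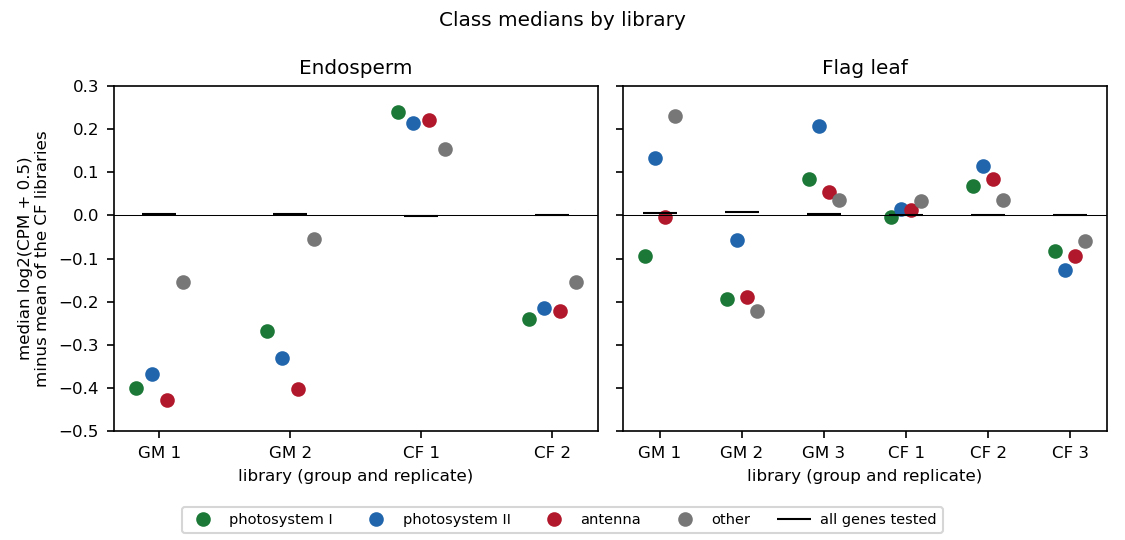
Median over the genes of a class of log2(CPM + 0.5) minus the mean of the CF libraries of that tissue, for each library, with all genes tested as a black dash. In endosperm the first CF library stands above the other 3, and the second CF library lies nearer to the GM libraries than to the first.

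Other genes of the light reactions had similar values in the endosperm, and none was called in either tissue. Negative values were found for 3 of 3 genes of cytochrome b6f and plastocyanin (median −0.45), 5 of 5 of the plastid ATP synthase (median −0.47) and 3 of 3 of the plastid NDH complex (median −0.25). The first CF library was the highest of the endosperm libraries for every gene of these lists. Relative to the CF mean, the NDH median was −0.20 in the second CF library and −0.18 and −0.05 under GM. The ATP synthase median was −0.33, against −0.52 and −0.36. The cytochrome and plastocyanin median was −0.22, against −0.42 and −0.42. PETC, the Rieske protein of the cytochrome complex, was at −0.51 (SE 0.14, adjusted p = 0.154). Lists with values nearer to 0 were ferredoxin and its reductases (6 of 10 negative, median −0.16), chlorophyll synthesis (9 of 11, median −0.12) and light and greening regulators (8 of 12, median −0.17). Rubisco small subunits and activase gave 6 of 7 negative, with a median of −0.27, where 49.6% of all genes tested were negative.

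Marker genes of other cell types were measured beside these values. Of the 6 aleurone and embryo markers tested, 4 were called lower in GM endosperm, where 1.23% of all genes tested were called lower. The 6 markers had a median log2 fold change of −0.84. Their sums were 643.5 and 556.0 CPM under GM and 1127 and 1233 CPM under CF, so here the first CF library did not stand above the second. The starchy endosperm list had a median of −0.36 (13 of 14 negative) and the leaf mesophyll list of −0.33 (10 of 10 negative). The mesophyll list draws in part on the Rubisco small subunit and activase genes already counted above. The first CF library was the highest of the 4 for 10 of 10 mesophyll genes and 11 of 14 starchy endosperm genes. Over all genes tested, 49.6% were negative. The list for pericarp, nucellus and transport face had a median of −0.07, and the husk list of −0.02, with no gene called in any of these 4 lists. The part of these shifts in the values of the photosystem genes was not tested.

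In the flag leaf no member passed the test either. By edgeR 0 of 58 members were called, where 2.94% of all 20208 genes tested were called, and 4 members had an unadjusted p under 0.05 (16.6% of all genes). The median log2 fold change, GM over CF, was 0.02, and 27 of the 58 values were negative (49.7% of all genes). Photosystem I had a median of −0.08 with 7 of 9 values negative, and photosystem II of 0.10 with 1 of 10 negative. The antenna had a median of −0.03. The SD between leaf replicates of the median log2 level over all members was 0.14, larger than the median of all members.

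The leaf genes with the lowest unadjusted p were antenna genes. CAB2R had 3933, 3854 and 5553 CPM in GM leaf and 3334, 3353 and 3342 CPM in CF leaf. As for 2533 of all 20208 genes tested in leaf, every GM library of CAB2R was above every CF library. Its log2 fold change was 0.41 (SE 0.13, adjusted p = 0.134, edgeR), and DESeq2 called it higher (adjusted p = 0.0405), where it called 4.12% of all genes. Lhcb7 had 109.0, 97.5 and 114.7 CPM under GM and 135.4, 129.7 and 126.4 CPM under CF. Its log2 fold change was −0.29 (SE 0.08, adjusted p = 0.0791), and DESeq2 called it lower (adjusted p = 0.0496). PSB27 was at 0.35 (SE 0.13, adjusted p = 0.205) and PSBS2 at −0.26 (SE 0.09, adjusted p = 0.151).

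PsbR1 varied widely among the leaf libraries. It had 225.9, 606.7 and 444.5 CPM under GM and 169.3, 278.6 and 271.0 CPM under CF, with the first GM library inside the CF range. Its log2 fold change of 0.83 had an SE of 0.42 (adjusted p = 0.413). PsbR3 scattered little around its level and was at −0.09 (SE 0.10).

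Within the leaf, 6 of the 12 ratios and shares separated every GM from every CF library and 6 did not. LHCII over LHCI reads was 1.98, 2.02 and 2.05 under GM and 1.84, 1.80 and 1.80 under CF. Without CAB2R the ratio was 1.73, 1.74 and 1.71 under GM and 1.64, 1.61 and 1.59 under CF. Photosystem II over photosystem I reads without PsbR3 was 0.927, 0.900 and 0.884 under GM and 0.800, 0.807 and 0.765 under CF. The groups did not overlap in these 3 ratios. For each the 2-sided exact permutation p was 0.1, the smallest that 3 against 3 libraries allow, with an adjusted p of 0.2 over the 12 measures. LHCII over photosystem II reads without PsbR3 also separated the groups and was lower under GM (exact permutation p = 0.1, adjusted p = 0.2). It was 3.18, 3.28 and 3.32 under GM and 3.46, 3.36 and 3.50 under CF. Other ratios did not separate the groups. Photosystem II over photosystem I reads with PsbR3 averaged 1.83 ± 0.06 under GM and 1.73 ± 0.04 under CF (exact permutation p = 0.2). LHCII over photosystem II reads with PsbR3 averaged 1.61 ± 0.04 under GM and 1.58 ± 0.03 under CF (exact permutation p = 0.4). LHCI over photosystem I reads averaged 1.46 ± 0.03 under GM and 1.498 ± 0.011 under CF (exact permutation p = 0.2). The antenna share was 60.9% ± 0.28 under GM and 60.7% ± 0.34 under CF (SD, n = 3 each; exact permutation p = 0.5).

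Within the endosperm, 7 of the 12 ratios and shares separated both GM from both CF libraries. Each of the 7 had an exact permutation p of 0.333, the smallest that 2 against 2 libraries allow (adjusted p = 0.571). The ratio of LHCII over LHCI reads was among them, at 3.24 and 3.25 under GM and 3.48 and 3.46 under CF. Here the first and second CF libraries lay close together, unlike their levels. Photosystem II over photosystem I reads without PsbR3 was 1.07 and 1.04 under GM and 1.03 and 1.08 under CF, and these groups overlapped.

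Whether the GM effect differed between the tissues was tested by subtracting the leaf effect from the endosperm effect. By edgeR 0 of 59 members were called, where 0.615% of 25035 genes tested were called, and 13 had an unadjusted p under 0.05 (11.9% of all genes). The median difference was −0.31. The replicate SD of the median log2 level over all members was 0.21 in endosperm and 0.14 in leaf. The root of their summed squares was 0.25. Of the 54 members tested in both tissues, 24 were negative in endosperm and positive in leaf, and 23 were negative in both. Without the first CF endosperm library the median difference was −0.05.

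The lowest p of the difference belonged to CAB2R, whose value was −0.99 (SE 0.25, adjusted p = 0.111). PSB27 followed with −0.86 (SE 0.23, adjusted p = 0.154) and Os07g0673550 with −0.54 (SE 0.17, adjusted p = 0.225). For CAB2R and PSB27 both GM endosperm libraries lay below both CF endosperm libraries, while the leaf values were positive. DESeq2 called both, where it called 1.3% of all genes, and edgeR called neither with all libraries and the filter on low counts in the fit.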

How the data were processed

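Libraries were directional and made from poly(A) RNA, per the labels' protocols. The authors deposited, for each gene, raw counts of uniquely assigned exon reads, per the labels, on the IRGSP-1.0 build, per the submitters' processing notes. The aligner and counter were not given in the sources used here. Each tissue was fitted alone, and both together for tissue contrasts, in R 4.3.3 with edgeR 4.0.16: filterByExpr (minimum count 10), TMM scaling, robust quasi-likelihood F test, and Benjamini-Hochberg adjustment over all genes tested, called at 0.05. The SE is the log2 fold change divided by the square root of F. Alternatives used DESeq2 1.42.0, and Python 3.11.15 with scipy 1.17.1 and pandas 2.3.3 made the ratios and permutation tests, with matplotlib 3.10.9 for figures. The fits were tested on simulated data with log2 changes of −2, −1, 1 and 2 in 50 genes each. At −1, 38 of 50 were recovered in the endosperm, 44 in the leaf and 17 for the tissue difference. The simulated data gave every gene the same dispersion (spread between replicates) and changed only genes above a set read level. They held no shift shared by many genes of a library, so the recovery in the measured libraries may differ. Smaller changes, such as the median GM effects of the members, were not simulated.

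The members and lists were chosen with earlier results of these data known. The naming rule took, per class by description wording, the 4 members of smallest p in each GM comparison and the 3 of highest level in each tissue, besides called members, the 3 smallest p of the tissue difference and members against their class. Members named outside this rule (such as PsbR1, PSBQ, LHCA5, OHP1, CYO1 and NOL) and the 12 ratios were chosen after values were seen. By role, PSAH was counted in photosystem I, although its description matched an antenna word.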

Additional observations from a re-analysis of the deposited data

How the results depend on the processing

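With 2 libraries a group, the endosperm comparison turned on single libraries. Members called there, 0 in all, became 19 with no filter on low counts, 6 with DESeq2 and 0 to 13 when a library was left out, and the median ranged from −0.534 to −0.118. In the leaf the count of 0 became 1 with no filter, 2 with DESeq2 and 1 with the replicate number as a block (PsbR1, higher). For the tissue difference it became 1 with no filter, 2 with DESeq2 and 0 to 1 with a library left out, the median ranging from −0.512 to −0.046. The endosperm against leaf median under CF ranged from −3.59 to −3.15 with a library left out. Same-numbered samples did not deviate together (correlations of 0.016 in endosperm and −0.008 to 0.034 in leaf), so the numbers gave no pairing. Genes called over the whole endosperm table were 292, against 1370 with no filter, 168 with the block and 135 to 944 with a library left out. In the leaf they were 594, against 987 with no filter, 335 with both tissues together and 40 to 933 with a library left out, and for the tissue difference 154, against 236 with no filter, 326 with DESeq2 and 80 to 204. No alternative turned the direction of a called value, but no member was called in the GM comparisons of the main fit. Some uncalled member values changed sign with a library left out, such as PSAE in endosperm (−0.37 to 0.03), and others kept theirs. The causes were not tested.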
